A study of Sus scrofa with 4 samples.

Results

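The 10 genes examined here form the serotonin system as far as it had been listed for these cells: the receptors HTR1B, HTR2A, HTR2B, HTR2C and HTR3A, the serotonin transporter SLC6A4, the synthesizing enzymes TPH1 and DDC, and the degrading enzymes MAOA and MAOB. A probe was taken as a member when the gene name in the array files equalled one of these symbols. This gave 13 of the 43603 probes of the array, for 8 of the 10 genes, and no probe carried the name SLC6A4 or TPH1, so these genes were not analysed here.

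Porcine intramuscular preadipocytes (PIP) are a cell line from the marbled longissimus muscle of a Duroc pig, used between passages 26 and 35. They were compared with the mature adipocytes (pMA) obtained from them, and the pMA with pMA stimulated by serotonin or by TNF-α. Each of the 4 conditions was measured on 1 array of RNA pooled within the group, all on 1 slide, so no difference has a replicate check and no test between conditions was possible. The comparisons ask how the serotonin system differs between preadipocytes and adipocytes, and how it responds to its own ligand and to an inflammatory cytokine. All 3 pMA groups, the unstimulated one included, had been kept for 4 days in differentiation medium with insulin (50 ng/ml), dexamethasone (0.25 µM), octanoate (2 mM) and oleate (200 µM), so what sets pMA apart from PIP includes these additions. Stimulation lasted 12 h, with TNF-α at 2.5 µg/ml or serotonin at 100 µM, a dose the sample labels give per ml. The paper reports, from separate assays, that serotonin caused significant death of adipocytes and lowered their fat, both depending on the dose. Whether cells died in the cultures used for the arrays was not tested. The part of cell death in the serotonin ratios below was not tested either.

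Serotonin is made from tryptophan by tryptophan hydroxylase and the decarboxylase DDC, is taken into cells by SLC6A4, and is broken down by the mitochondrial monoamine oxidases. Most of its receptors are coupled to G proteins: HTR1B to inhibitory ones, and HTR2A, HTR2B and HTR2C to those that release calcium through phospholipase C. HTR3A encodes the subunit that forms the ligand-gated cation channel of this receptor family. Outside the brain serotonin comes mainly from the gut and is carried by platelets, and adipose tissue is among the tissues that respond to it.

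The probes that carry the results are shown first, because each value below is the signal of 1 such 60-base oligonucleotide. HTR3A and HTR1B rest on a single probe each. The RefSeq transcript that the array files list for the HTR3A probe is not the one the RefSeq gene table lists for HTR3A, so this probe's assignment rests on the gene name and annotation in the files. The HTR2A probes overlap, and the capitals mark the 49 bases they share, so they are not independent readings of the transcript. In the shared stretch the coding sequence ends in its stop codon.
HTR3A probe: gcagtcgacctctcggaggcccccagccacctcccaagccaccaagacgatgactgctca
HTR1B probe: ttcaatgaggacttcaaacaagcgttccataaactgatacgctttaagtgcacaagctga
HTR2A probe, upstream: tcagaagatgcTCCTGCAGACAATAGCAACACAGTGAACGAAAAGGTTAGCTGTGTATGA
HTR2A probe, downstream: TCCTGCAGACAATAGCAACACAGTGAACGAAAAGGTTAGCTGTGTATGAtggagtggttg
The 3 MAOA probes share no stretch with each other and so read separate parts of the transcript. The first and the second of them, by their start in the target, are given here.
MAOA probe, first: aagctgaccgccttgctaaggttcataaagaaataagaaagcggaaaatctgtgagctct
MAOA probe, second: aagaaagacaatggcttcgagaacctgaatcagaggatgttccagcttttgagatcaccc
Of the 3 MAOB probes, a pair target the same place and differ from each other at 3 bases, in capitals in the 22-base windows that follow.
MAOB probe A, window: caatattccCtTGccatgcaca
MAOB probe B, window: caatattccTtGCccatgcaca
No member probe had a run of 20 bases in common, on either strand, with a probe of another gene name. On the RefSeq gene table of the Sscrofa11.1 assembly MAOA and MAOB are neighbours on chromosome X, and HTR3A lies beside HTR3B on chromosome 9.

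Signals are given as log2 values relative to the 75th percentile of each array, where 0 is the brightness at that percentile. That percentile was 515 intensity units in PIP, 479 in pMA, 566 after serotonin and 559 after TNF-α, and between 56.5% and 66.0% of probes were well above background by the scanner software's flag. A probe without the flag is called dim, and its value is no measured level. Repeated spots of a probe had a standard deviation (SD) of 0.08 on the log2 scale on each array for levels above -3, giving an SD of 0.11 to 0.12 for a log2 ratio, and of 0.28 to 0.47 for levels between -5 and -3. These SDs cover noise within an array, and neither that between cultures nor the error of scaling between arrays. Of the adipocyte markers in a list of 9, CD36 had a log2 ratio of 5.17 between pMA and PIP, with its probes from 1.19 to 5.17. For CIDEC it was 3.88, with its probes from 0.75 to 3.88. FABP4 lay at 3.08 or more as a lower bound, PPARG at 1.07, LPL at 0.38 and LEP at 0.31. CEBPA was dim in PIP and pMA, PLIN1 was dim on all 4 arrays and ADIPOQ was dim in all 3 pMA groups. In pooled RNA, fewer cells of a type and less RNA per cell cannot be told apart.

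Of the 8 genes with a probe, 5 were well above background on all 4 arrays: the receptors HTR3A, HTR2A and HTR1B and the oxidases MAOA and MAOB. The receptors HTR2B and HTR2C and the decarboxylase DDC were dim on every array. The plot of member probes shows both sets.

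**Figure D1:**
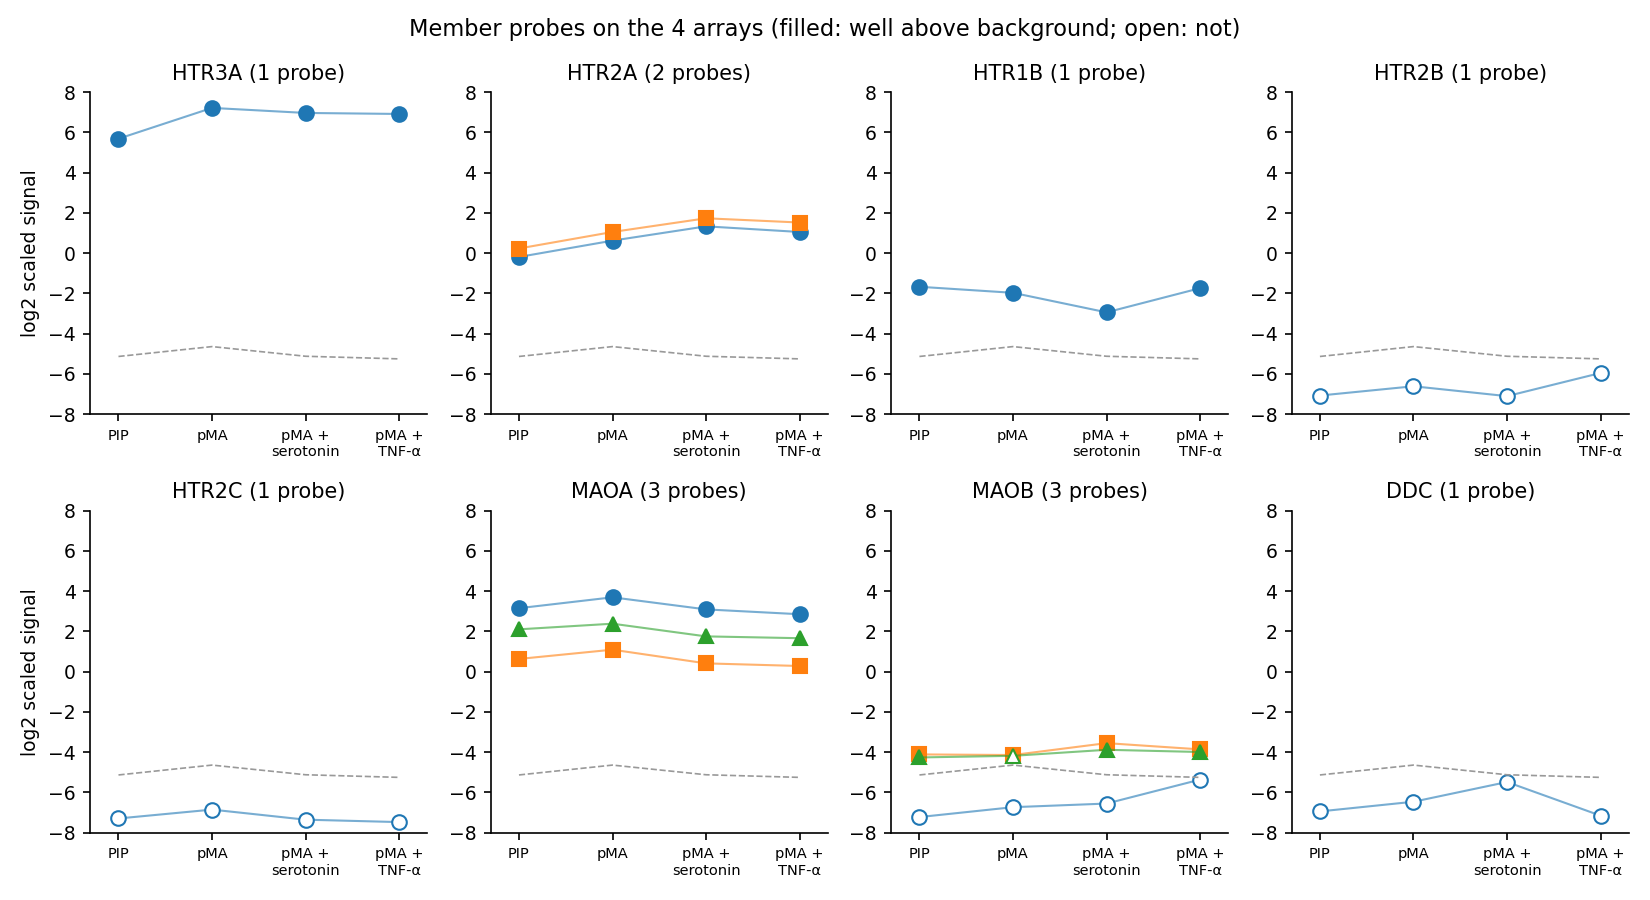
Log2 signal of the 13 member probes relative to the 75th percentile of each array (vertical axis) in PIP, pMA, and pMA stimulated with serotonin or TNF-α (horizontal axis), 1 array each; circles, squares and triangles are different probes of a gene, filled symbols are well above background and open ones are not, and the dashed line is the faintest signal well above background on each array. HTR3A, HTR2A, HTR1B and the MAOA probes are filled on all 4 arrays, while HTR2B, HTR2C and DDC are open on all of them.

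HTR3A, the channel-forming receptor subunit, had a signal of 26430 intensity units in PIP, 70830 in pMA, 70517 after serotonin and 67449 after TNF-α. The scaled log2 values were 5.68, 7.21, 6.96 and 6.91, so PIP was low and the 3 pMA groups lay close together. The log2 ratio of pMA to PIP was 1.53, or 2.89-fold, against an SD of 0.11 between repeated spots. Among the 5 members with a ratio it was the only gene past 2-fold, 1 of 5, where 13.5% of the 18633 gene names with a ratio were past 2-fold in either direction and 9.94% were higher in pMA. The ratio was 1.18 after scaling to the median, an alternative that moved the median log2 ratio of all gene names from 0.12 to -0.22, and it was past 2-fold under all 7 alternative processings of the signal.

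Relative to unstimulated pMA, the HTR3A log2 ratio was -0.25 after serotonin and -0.30 after TNF-α, both far from 2-fold. Both were 2 to 3 times the SD of repeated spots, which does not cover error of the scaling. The unscaled signals were close, at 70830 in pMA, 70517 after serotonin and 67449 after TNF-α. The 75th percentiles they were divided by were 479, 566 and 559. Probes with as much GC as this probe or more had a median log2 ratio of -0.25 after serotonin, equal to the HTR3A value, and of -0.15 after TNF-α, against 0.02 and 0.0 over all probes. After quantile normalization the HTR3A ratio after serotonin was -0.05. The stimulated groups differed from each other by 0.05, within the spread of repeated spots. No spot on the arrays was marked as saturated, and the brightest signal in pMA was 481899 intensity units, so the HTR3A probe did not lie at the upper limit of the scale.

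Base composition set this probe apart from most others. Its GC content was 65.0%, against a median of 41.7% over all probes. The 151 probes with as much GC or more, 0.346% of the array, were well above background on all 4 arrays in 85.4% of cases, against 52.8% of all probes. Their median log2 ratio of pMA to PIP was 0.46, against 0.06 for all probes, and 17.6% of those with a ratio were at least 2-fold higher, against 9.12%. The part of base composition in the HTR3A ratios was not tested.

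HTR2A, a receptor that signals through calcium release and is known from platelets and smooth muscle, had its lowest signal in PIP and its highest after serotonin. Its upstream probe, which had the higher mean and represents the gene, read 603 intensity units in PIP, 990 in pMA, 1876 after serotonin and 1602 after TNF-α. The scaled log2 values were 0.23, 1.05, 1.73 and 1.52. The downstream probe read -0.19, 0.62, 1.33 and 1.05, which is the same order of the 4 arrays.

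The HTR2A log2 ratio of pMA to PIP was 0.82 by the upstream and 0.81 by the downstream probe. For serotonin against pMA it was 0.68 and 0.71, and for TNF-α against pMA 0.47 and 0.42. Each of these steps exceeded 2 times the SD of repeated spots, but none reached 2-fold. The difference between the stimulated groups was 0.21 by the upstream probe, 1.8 times that SD, and 0.28 by the downstream probe, beyond 2 times that SD. After scaling to the median the ratio of pMA to PIP was 0.47.

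HTR1B, which inhibits adenylyl cyclase and restrains transmitter release in neurons, had its lowest signal after serotonin. Its single probe read 162 intensity units in PIP, 122 in pMA, 73.9 with serotonin and 168 with TNF-α. These were, as log2 values, -1.67, -1.97, -2.94 and -1.74, so the serotonin group was low and the other 3 lay within 0.31 of each other. Serotonin against pMA gave a log2 ratio of -0.96, or 1.95-fold lower, just inside the 2-fold limit, and TNF-α against pMA gave 0.24. The latter was not beyond 2 times the SD of repeated spots, and it was 0.07 with normexp background correction. The pMA were 0.31 below PIP.

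Set directly against each other, a comparison added after the values were seen, the stimulated arrays differed in HTR1B by -1.20, or 2.29-fold lower after serotonin. HTR1B was the 1 of 5 members past 2-fold there, where 6.9% of 21862 gene names were past 2-fold and 5.07% were lower after serotonin. With normexp, which adds an offset of 50 units before the logarithm, the difference was -0.72 and thus no longer past 2-fold.

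The summed levels of several marker lists for other cell types were also lowest after serotonin, though not all of their genes were lower. So was that of the 2 preadipocyte markers with a probe, at 5.58 in PIP, 5.47 in pMA, 4.59 with serotonin and 5.1 with TNF-α. The 9 adipocyte markers summed to 0.95, 2.46, 4.17 and 3.52, highest after serotonin, though their ratios to pMA ran from -2.77 for FABP4 to 2.41 for LPL. The summed log2 level of 4 endothelial markers was 0.65 in PIP, 0.19 in pMA, -1.07 with serotonin and 0.19 with TNF-α. Of these, PECAM1 and KDR were above background on all 4 arrays and CDH5 was dim on all 4. For the 4 skeletal muscle cell markers with a probe it was 3.09, 3.38, 2.46 and 3.47, with MYOD1 and MYF5 dim throughout. Of the other muscle markers, DES lay at -1.02 against pMA on the log2 scale after serotonin and MYOG at -0.01. The 3 platelet and megakaryocyte markers with a probe summed to 3.63, 3.23, 2.18 and 2.62, with a ratio after serotonin of -1.5 for ITGA2B and 0.04 for GP9. The 2 leukocyte markers with a probe went another way, with sums of 0.67, 1.08, 0.98 and 1.62, lowest in PIP. Their ratios after serotonin were -0.02 for CD14 and -0.96 for AIF1. Both mast cell markers with a probe, KIT and FCER1A, were dim on all 4 arrays. The cultures come from a cell line, and these values are signals of genes, not evidence that endothelial, muscle, platelet, leukocyte or mast cells were present. The part of these genes in the HTR1B value was not tested.

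The HTR2B and HTR2C receptors were dim in every condition. HTR2B, which signals as HTR2A does, read 3.82 intensity units in PIP, 4.90 in pMA, 4.13 after serotonin and 9.05 after TNF-α. HTR2C, best known from the brain, read 3.29, 4.13, 3.47 and 3.15. The faintest signal well above background was between 14.7 and 19.2 units on these arrays, so neither probe gave a level or a ratio, and a transcript below that limit cannot be separated from none. The paper reports HTR2C protein by immunofluorescent staining in PIP and pMA after serotonin, whereas the values here are RNA signals.

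Among the 13 other serotonin receptor genes listed, 4 had a probe. HTR1A, whose protein the paper reports from the same kind of staining, had no probe of that name. HTR1D and HTR1F, of the same inhibitory class as HTR1B, were dim on all 4 arrays. The probe that represents HTR4, a receptor that raises cyclic AMP, was above background only after TNF-α, at 28.4 units, and was at least 1.26-fold higher than in pMA. Of the other HTR4 probes, 1 was above background only after serotonin, at 20.2 units, so the probes disagreed. HTR7, which also raises cyclic AMP, read 18.2 units in PIP, 23.2 in pMA, 7.02 after serotonin and 20.3 after TNF-α, and only the last carried the flag. Since the unflagged pMA signal was the higher one, no ratio to pMA was calculated.

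The enzyme MAOA, which oxidizes serotonin with the higher affinity of the monoamine oxidases, was highest in unstimulated pMA on all 3 of its probes. Its representative probe, the third along the transcript, read 4573 intensity units in PIP, 6170 in pMA, 4815 after serotonin and 4029 after TNF-α. The scaled log2 values were 3.15, 3.69, 3.09 and 2.85. The first probe read 0.63, 1.09, 0.41 and 0.28 and the second 2.10, 2.38, 1.75 and 1.66. On this scaling all 3 probes placed the arrays in 1 order, with TNF-α lowest, then serotonin, PIP and pMA.

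In differentiation the MAOA log2 ratios were 0.54, 0.46 and 0.28 by the third, first and second probe. After serotonin they were -0.60, -0.69 and -0.63, and after TNF-α -0.84, -0.81 and -0.72. Every one of these exceeded 2 times the SD of repeated spots, and none reached 2-fold. Scaling to the median brought the differentiation ratio of the third probe to 0.19. That scaling moves all probes by the same amount, so the ratios of the first and second probe were lower still. Their direction under it was not examined. The ratios of the representative probe to pMA lay between -0.64 and -0.56 after serotonin over the 7 alternative processings. After TNF-α they lay between -0.92 and -0.78. The stimulated groups differed by 0.24 on the representative probe and by 0.12 and 0.10 on the others.

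MAOB, the oxidase with a preference for phenylethylamine, gave faint signals. Probe A, which represents it, read 29.8 intensity units in PIP, 27.1 in pMA, 48.4 with serotonin and 38.5 with TNF-α, which are log2 values of -4.11, -4.14, -3.55 and -3.86. Probe B read 26.9, 26.3, 38.5 and 35.1 units and was dim in pMA. The third probe was dim on all 4 arrays, between 3.46 and 13.6 units. The log2 ratios of probe A were -0.03 for pMA against PIP, 0.60 after serotonin and 0.28 after TNF-α. At this level the SD of a ratio between repeated spots was 0.38 to 0.47 in these comparisons, so the 4 MAOB values were not distinguishable from each other, and the serotonin ratio was 0.05 with normexp correction.

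DDC, the decarboxylase that completes serotonin synthesis, was dim in every condition, with 4.19 intensity units in PIP, 5.44 in pMA, 12.7 after serotonin and 3.95 after TNF-α.

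No member was past 2-fold after either stimulation when compared with unstimulated pMA, 0 of 5 each, where 6.82% of 19095 gene names were past 2-fold after serotonin and 3.56% of 19782 after TNF-α. Among gene names that are symbols of the reference gene tables these shares were 7.26% and 4.09%, and 12.2% for differentiation. With 5 members the background shares amount to less than 1 gene per comparison, so the counts of 1, 0 and 0 do not set the members apart. The median log2 ratio of the 5 members was 0.54 in differentiation, -0.25 after serotonin and 0.24 after TNF-α, beside 0.12, 0.01 and 0.01 over all gene names. Both stimulations share the pMA array, whose own error enters both ratios in the same direction.

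**Figure D2:**
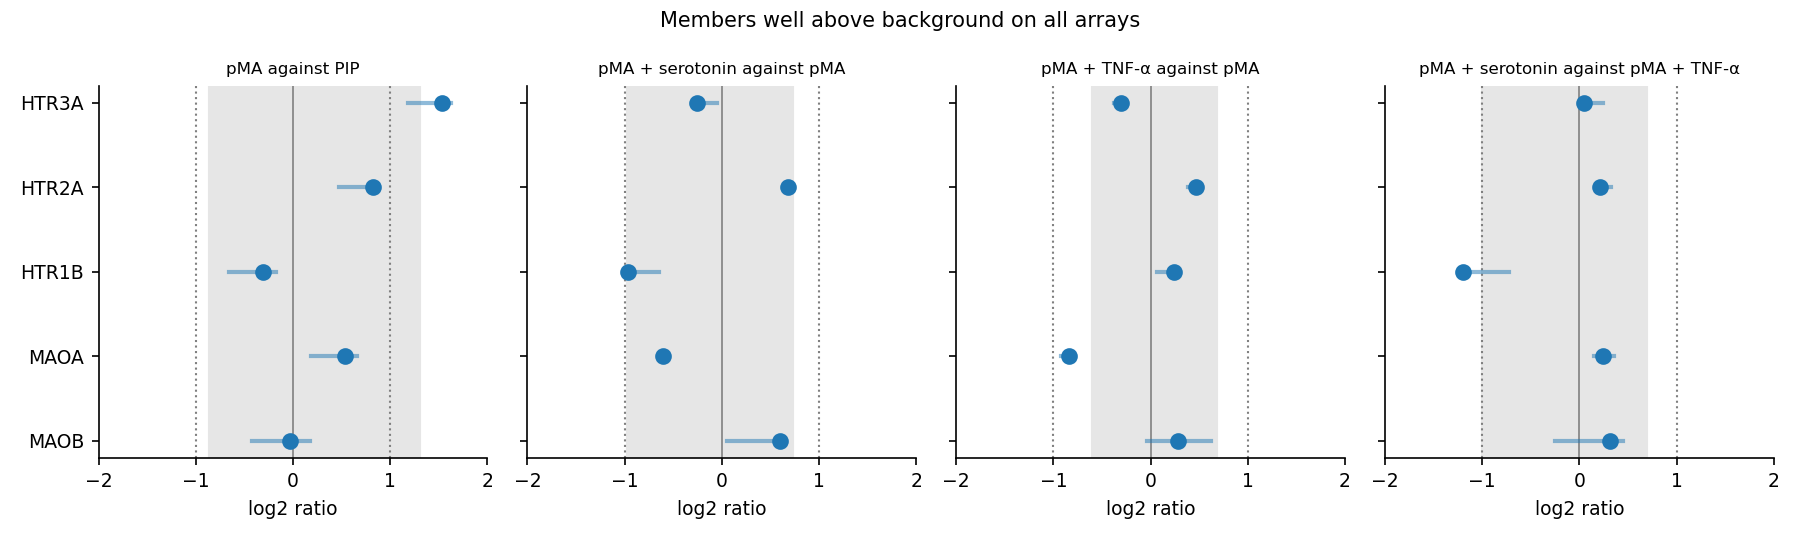
Log2 ratio (horizontal axis) of the 5 members above background on all 4 arrays in the 3 comparisons of the design and between the stimulated arrays; points are the ratios after scaling to the 75th percentile, bars span the 7 alternative processings, dotted lines mark 2-fold and the shaded band runs from the 5th to the 95th percentile of all gene names. HTR3A lies past 2-fold in pMA against PIP at 1.53, and HTR1B in serotonin against TNF-α at -1.20, where its bar reaches -0.72.

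The rest of the pathway was taken from lists of 99 further genes, of which 44 had a probe. In differentiation 33 of these had a ratio, with 4 at least 2-fold higher and 2 lower in pMA, where 9.94% and 3.56% of all gene names were. After serotonin 2 were that much higher and 3 lower among 33, where the background shares were 2.08% and 4.73%. After TNF-α 2 were higher and 1 lower among 36, with background shares of 2.21% and 1.34%. The medians were 0.09, 0.06 and -0.01. The plot of pathway genes gives the 10 genes behind these counts.

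Of the genes for synthesis and storage, none of those measured on both arrays was past 2-fold by its representative probe. The brain-type hydroxylase TPH2 and the vesicular transporter SLC18A1 were dim on all 4 arrays. QDPR and PCBD1, which regenerate the hydroxylase cofactor, and GCHFR, which regulates its synthesis, had log2 ratios between -0.18 and 0.43 in the 3 comparisons by their representative probes. The probes of PCBD1 differed, from 0.38 to 0.94 in differentiation and from 0.19 to 0.51 after serotonin, and those of QDPR lay between -0.43 and -0.07 in differentiation. SLC29A4, a low-affinity membrane transporter of monoamines, was dim in PIP and above background in all pMA groups, at -3.80, -4.49 and -3.93 in pMA, serotonin and TNF-α. It was at least 2.52-fold higher in pMA than in PIP, and its ratio after serotonin was -0.70.

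In the breakdown and conjugation list 9 of 21 genes were measured, and 3 were past 2-fold in at least 1 of the 3 comparisons, where 17.9% of 20530 gene names were. ALDH2, the aldehyde dehydrogenase that acts on the product of the monoamine oxidases, read 5.27 in PIP, 6.54 in pMA, 6.27 after serotonin and 5.48 after TNF-α. Like MAOA it was highest in unstimulated pMA. Its log2 ratio was 1.27 in differentiation, with its 9 probes between 1.09 and 1.81, and -1.06 after TNF-α, with the probes between -1.21 and -1.02. After serotonin it was -0.26.

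Of the conjugating enzymes, UGT1A6 and SULT1A1 were higher than in pMA after both stimulations. UGT1A6, a glucuronosyltransferase that accepts serotonin, read -1.52, -2.83, 0.85 and -0.91 in PIP, pMA, serotonin and TNF-α by its single probe. It was 2.48-fold lower in pMA than in PIP, and 12.8-fold higher after serotonin and 3.79-fold higher after TNF-α than in pMA, which are log2 ratios of 3.68 and 1.92. With normexp these log2 ratios were 2.78 and 1.22. Whether the UGT1A6 probe also reads related transcripts was not tested. SULT1A1, a sulfotransferase of phenolic compounds, read 1.84, 2.44, 3.1 and 5.15. Its ratio to pMA was 2.71 after TNF-α and 0.66 after serotonin, and its second probe gave 2.92 and 0.88.

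Of 35 genes that couple or desensitize serotonin receptors, 20 had a probe. Single probes, 1 each, stand for RGS2, RGS4, ITPR1, ITPR3 and PRKCA. RGS2, which shortens signalling through the G proteins of the HTR2 class, read -1.15 in PIP, -0.03 in pMA, -1.63 after serotonin and 0.71 after TNF-α. Its log2 ratios were 1.11, -1.60 and 0.74, so the stimulated groups lay on opposite sides of pMA. RGS4, a related inhibitor, read 0.85, 0.66, 2.54 and -0.11, with ratios of -0.19, 1.88 and -0.77, the reverse arrangement.

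The calcium channels opened by the HTR2 pathway also differed. ITPR1 read -1.31, -0.34, -1.70 and -0.92, a ratio of 0.96 in differentiation and -1.36 after serotonin. ITPR3 had ratios of 1.21, -0.28 and -0.38. PRKCA, a protein kinase C isoform activated in the same pathway, had ratios of -1.13, -0.35 and -0.02.

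S100A10, also called p11, is an adaptor that binds HTR1B and HTR4 and promotes their presence at the cell surface. It read 5.95 in PIP, 5.48 in pMA, 4.19 after serotonin and 4.59 after TNF-α. All 5 of its probes were lower after serotonin, between -1.47 and -1.29, and after TNF-α, between -1.07 and -0.79. In differentiation its probes disagreed, from -1.0 to 0.08. Scaling to the median took the differentiation ratios of SLC29A4 (0.98), ALDH2 (0.92), ITPR3 (0.86) and RGS2 (0.76) below 2-fold. Normexp correction did so for SLC29A4 (0.59), UGT1A6 (-0.75), ITPR3 (0.92), PRKCA (-0.77) and RGS2 (0.9), and quantile normalization for SLC29A4 (0.84), whereas the 2-fold differences after the stimulations were kept under all 7 alternative processings.

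**Figure D3:**
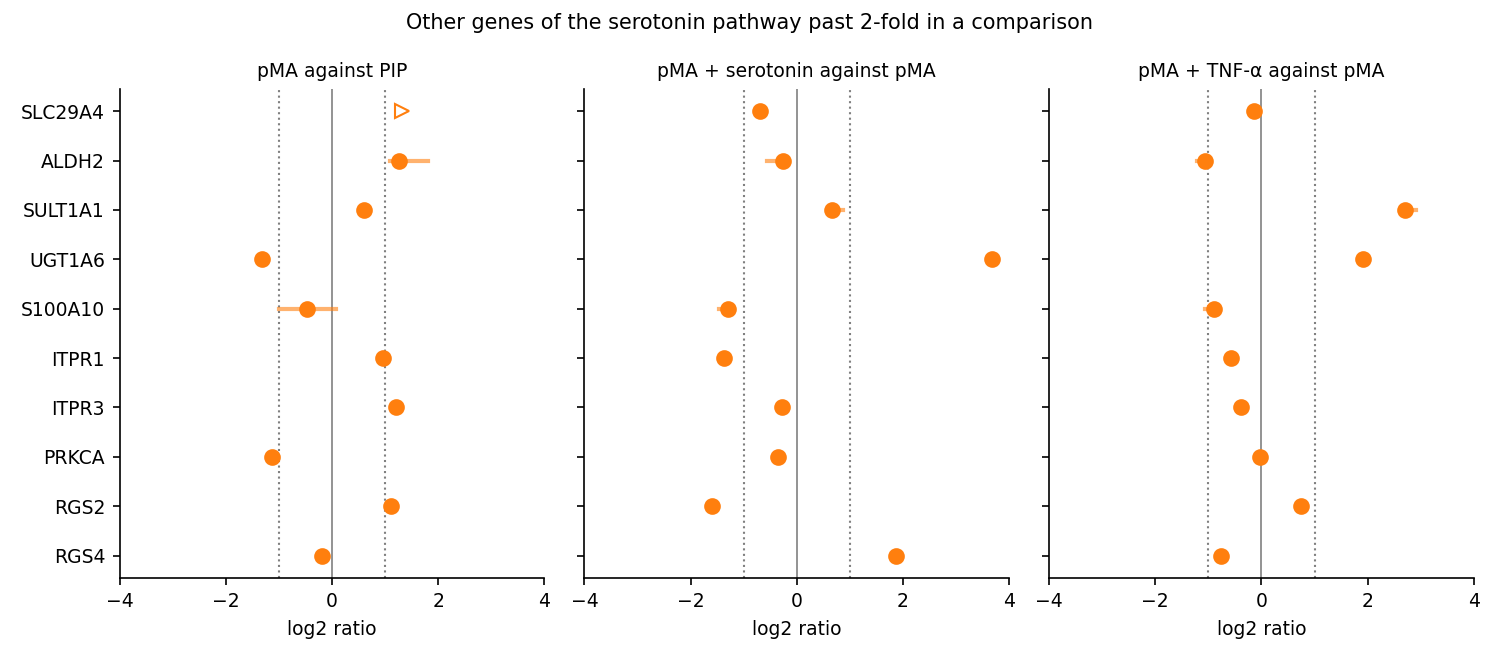
Log2 ratio (horizontal axis) of the 10 pathway genes past 2-fold in at least 1 of the 3 comparisons; filled points are measured ratios of the representative probe, the open triangle is a lower bound, bars span all probes of a gene and dotted lines mark 2-fold. UGT1A6 lies at 3.68 after serotonin, SULT1A1 at 2.71 after TNF-α, and RGS2 and RGS4 lie on opposite sides of 0 in the stimulations.

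For the 3 members with the widest range over the arrays, the genes of most similar pattern were sought among 4705 other gene symbols above background on all 4 arrays. Likeness was the root mean square difference between log2 profiles, each centred on its mean over the 4 arrays. The range was 1.53 for HTR3A, 1.5 for HTR2A and 1.27 for HTR1B. Nearest to HTR3A were ARPC1B, a subunit of the actin-nucleating complex (difference 0.014), SLC6A17, a neutral amino acid transporter (0.029), and ASCL4, a transcription factor (0.038). The genes closest to HTR2A were PSMB11 (0.043), a proteasome subunit known from the thymus, complement C5 (0.061) and ATG16L2 (0.070). ARPC1B, at 9.96 in pMA and 9.72 after serotonin, lay close to the brightest signal of those arrays. Whether this shaped its profile was not tested. SLC6A17, PSMB11 and C5 were faint, at -4.65, -4.34 and -4.58 in PIP. For levels between -5 and -3 the SD of a log2 ratio between repeated spots, 0.28 to 0.47, exceeded the differences given for them.

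HTR1B was closest to CYR61, a matricellular protein (0.035), VCL, the focal adhesion protein vinculin (0.069), and VLDLR, a lipoprotein receptor (0.072). CYR61 had a log2 ratio to pMA of -0.98 after serotonin and of 0.21 with TNF-α. Over only 4 arrays such profiles are common: 92 genes lay within 0.2 of HTR3A, 54 of HTR2A and 61 of HTR1B.

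**Figure D4:**
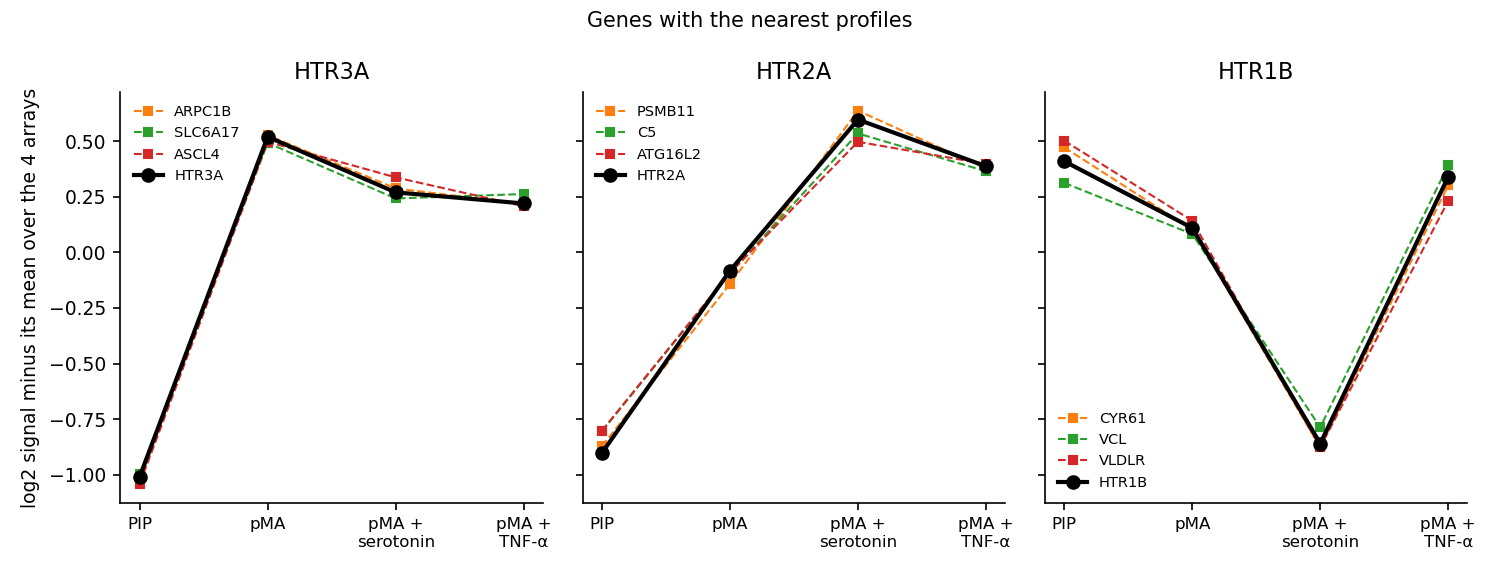
Log2 signal minus its mean over the 4 arrays (vertical axis) in PIP, pMA, and pMA stimulated with serotonin or TNF-α (horizontal axis), 1 array each, for HTR3A, HTR2A and HTR1B (black) and the 3 genes nearest to each (dashed). HTR3A is low in PIP, HTR2A is highest after serotonin and HTR1B is lowest after serotonin, and the dashed profiles follow within 0.072 root mean square difference.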

How the data were processed

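Total RNA pooled within each group (200 ng) was labelled with Cy3 and hybridized to 1 porcine 4 × 44K oligonucleotide array per group. The deposited intensity values are the scanner output of Agilent Feature Extraction 10.7.3.1 per the file headers, with background subtracted by the authors' software. The deposited series table holds a linear ratio of the same intensity to a constant of each array, by the authors, and was used as an alternative. The methods also describe a mouse array and a two-color protocol, whereas the files are from a porcine array in 1 color.

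Control and outlier spots (12 in PIP, 1 in pMA, 3 after serotonin, 4 after TNF-α) were left out, repeated spots were averaged, and log2 intensities were scaled to the 75th percentile of each array. Of a gene's probes, the one of highest mean stood for it. Where only 1 array compared was well above background, the dim value was raised to the faintest such signal there, which makes the ratio a lower bound. No ratio was given where both were dim or the bright value did not exceed that limit. The limit for calling a ratio was 2-fold, the fold cutoff of the study's methods. Those methods also required a significant t-test, which 1 array a group does not allow. Named were all members, all other serotonin receptors with a probe, pathway genes past 2-fold in any of the 3 comparisons, and the 3 nearest profiles of the 3 members of widest range. Members, gene lists and the named-gene rule were chosen with earlier results of these data known, and serotonin against TNF-α was added after the values were seen. With 1 array a group, precision is limited by the number of arrays.

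The alternatives were scaling to the median, quantile normalization, normexp correction (offset 50, limma 3.58.1 in R 4.3.3), no filter on dim probes, only probes above background on all 4 arrays, the mean over a gene's probes, the series table, and limits of 4-fold and 1.5-fold. Calculations used Python 3.11.15 and pandas 2.3.3 and were tested on simulated data.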

Additional observations from a re-analysis of the deposited data

Results flagged for a closer look

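The log2 ratios to unstimulated pMA had opposite signs after serotonin and after TNF-α, with the stimulated arrays at least 2-fold apart, in 3 genes. HTR1B was -0.96 after serotonin and 0.24 after TNF-α, and the direct log2 ratio of serotonin to TNF-α was -1.20. The TNF-α value was not beyond 2 times the SD of repeated spots, and with normexp it was 0.07 and the direct ratio -0.72, under 2-fold. RGS2 was -1.60 and 0.74, with a direct ratio of -2.34. RGS4 was 1.88 and -0.77, with a direct ratio of 2.65. Each of the 3 genes rests on 1 probe. Each condition is 1 array, so these differences were not tested.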

How the results depend on the processing

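Of the 15 member ratios in the 3 comparisons, 13 kept their direction under all 7 alternative processings, and the exceptions were MAOB in differentiation (-0.42 to 0.18) and after TNF-α (-0.04 to 0.62). In these comparisons the count of members past 2-fold stayed at 1, 0 and 0 under those 7. A limit of 4-fold gave 0 in differentiation, and a limit of 1.5-fold gave 2 in differentiation, 4 after serotonin and 1 after TNF-α, where 34.0%, 21.0% and 12.1% of gene names passed. For serotonin against TNF-α the count was 1, and 0 with normexp correction or a 4-fold limit. It was 3 with no filter on dim probes, where HTR2B and DDC joined on signals not above background. The share of gene names higher in pMA among those past 2-fold in differentiation was 73.6%, 34.1% with median scaling and 54.7% with quantile normalization. The share higher after TNF-α than in pMA, among those past 2-fold in that comparison, was 62.2%, 50.2% and 49.3%. The number of gene names past 2-fold in differentiation was 2515, and 824 with normexp and 7130 with no filter. After serotonin it was 1302, 578 and 3902, after TNF-α 704, 267 and 3235, and for serotonin against TNF-α 1509, 694 and 4447. The split for serotonin against TNF-α moved from 26.5% higher after serotonin to 40.4% with median scaling and 39.4% with quantile normalization. No paired analysis was possible because the groups compared share fewer than 2 replicate numbers. Signals near the faintest level above background, such as those of MAOB, HTR4 and HTR7, carry the largest error.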
